A study of Homo sapiens with 4 samples.

Results

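Untreated HepG2 cells, a human liver cancer line, were compared with untreated A549 cells, a human lung cancer line, to describe which genes set the lines apart before any drug is added. The comparison used 2 of the 4 arrays of the series, those labelled HepG2 control and A549 control at 6 h, and 18339 of 18365 genes that had a probe of their own could be compared on both. The other 2 arrays came from the same lines after 10 μM GSK343, an inhibitor of the histone methyltransferase EZH2, for 6 h, and were used to see whether a line difference was found again. Both lines were grown in DMEM with serum, the controls are labelled only as control and the labels do not name a vehicle, and each group was a single array. No test between the control arrays was therefore possible, and a line here means a single culture of an immortal cell line, not liver or lung tissue.

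Hepatocytes secrete most plasma proteins and apolipoproteins, and transcription factors of the HNF, FOXA and C/EBP families keep these genes on. The alveolar epithelium of the lung makes surfactant under the factor NKX2-1. Cultured carcinoma lines can lose such programmes and can take up features of mesenchymal cells, such as vimentin filaments and caveolae. A549 is known to carry a mutation of KEAP1, which frees the oxidative stress factor NRF2, and HepG2 carries a deletion in CTNNB1 that makes beta-catenin stable.

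Values are the processed Cy5 intensities that the authors deposited, on a linear scale, and a difference is log2 of HepG2 minus log2 of A549, averaged over the probes that name a gene alone. The medians of the arrays lay between 449.8 and 498.8. The low end of each array has no flag or background value, so the 25th percentile of an array, 94.1 to 103.7, served as its floor, and where the dimmer control value lay under it the fold is given as "at least". Log2 values of the control and GSK343 arrays correlated with r = 0.991 in HepG2 and 0.992 in A549 over probes, and the control arrays of HepG2 and A549 with r = 0.886. Probes that read the same gene gave a line difference with a spread of 0.90 log2 units over 4593 genes with 2 probes, and of 0.66 log2 units in the brightest 25% of these. This is a spread between probes, not between replicate arrays, of which there were none. The line differences of the control and GSK343 arrays disagreed with an SD of 0.53 log2 units over genes.

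The markers followed the labels on all 4 arrays. ALB, which encodes serum albumin, had intensities of 184685 and 188461 in HepG2 and 54.1 and 53.8 in A549, control before GSK343, and was at least 1909-fold higher in untreated HepG2. AFP, the albumin relative of fetal liver, had 193026 and 217545 in HepG2 and 129 and 113 in A549 (1496-fold higher). APOA1, the main protein of high density lipoprotein, had 373628 and 455048 in HepG2 and 1209 and 977 in A549 with its brighter probe (309-fold higher). In each of these the HepG2 arrays lay far above the A549 arrays and did not overlap them. The A549 markers ran the other way. VIM, the intermediate filament of mesenchymal cells, had 27.2 and 22.7 in HepG2 and 156686 and 143314 in A549, and was at least 1561-fold higher in untreated A549. KRT7, a keratin of lung and ductal epithelium, had 23 and 31 in HepG2 and 56123 and 54671 in A549 (at least 559-fold higher in A549). CAV1, the coat protein of caveolae, had 96.2 and 70.3 in HepG2 and 131262 and 100203 in A549 (at least 1308-fold higher in A549). HNF4A, the remaining marker of HepG2, was not analysed here.

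**Figure D1:**
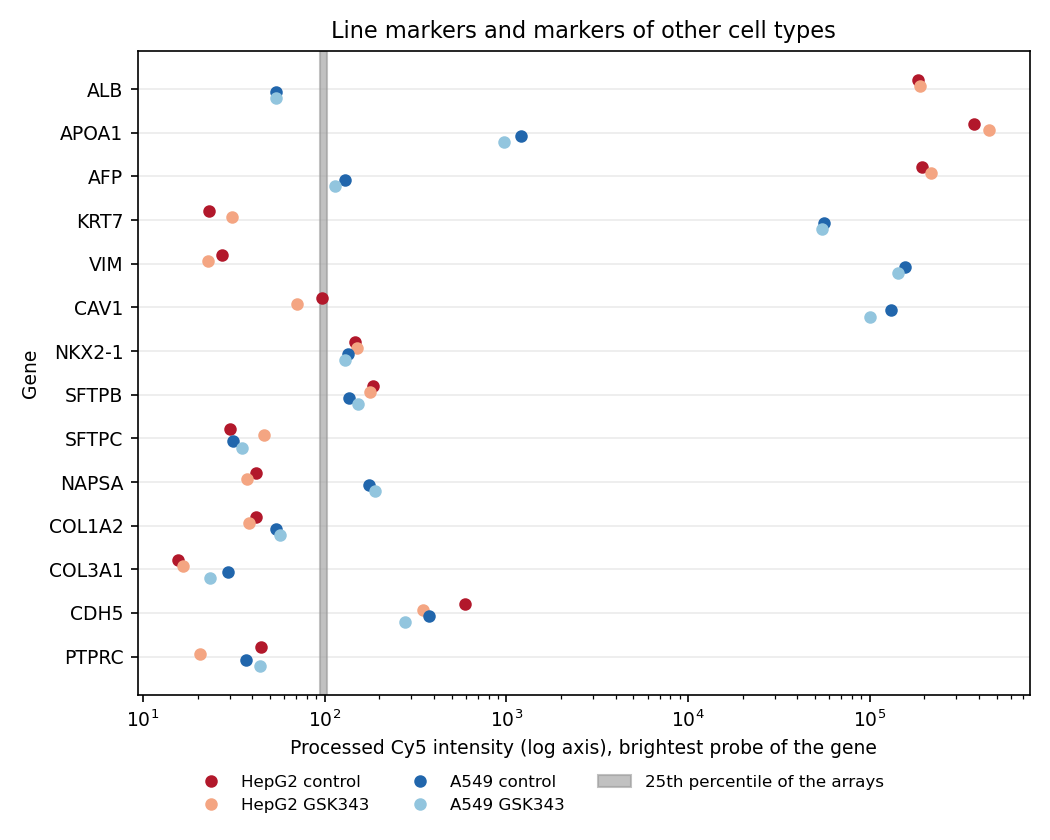
Processed Cy5 intensity on a log axis for 14 genes, with the 4 arrays as coloured points and the range of the arrays' 25th percentiles as a grey band. ALB and AFP are bright only on the HepG2 arrays, and KRT7, VIM and CAV1 only on the A549 arrays. APOA1 is far brighter on the HepG2 arrays but also gives signal in A549 (1209 and 977). The alveolar, fibroblast, endothelial and blood cell genes shown are dimmer than APOA1 in A549, the highest being CDH5 at 596 in untreated HepG2. Other markers of these cell types that are not shown were brighter, such as COL1A1 (2150 in untreated HepG2), CD68 (2119 in untreated HepG2) and ABCA3 (3058 in untreated A549).

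The promoters of 4 genes that set the lines apart are shown because they hold letters known to be bound by HNF1, a liver factor, or by NRF2. The windows run from 250 bases before to 50 after the start of the gene in RefSeq (GRCh38.p14). Capitals mark matches on either strand to GTTAATNAT, the core that HNF1 factors bind, in ALB (chr4:73404037-73404336, plus strand), AFP (chr4:73435971-73436270, plus strand) and FGA (chr4:154590693-154590992, minus strand). In ME1 (chr6:83431002-83431301, minus strand) they mark TGACNNNGC, the core of the antioxidant response element that NRF2 binds.
ALB: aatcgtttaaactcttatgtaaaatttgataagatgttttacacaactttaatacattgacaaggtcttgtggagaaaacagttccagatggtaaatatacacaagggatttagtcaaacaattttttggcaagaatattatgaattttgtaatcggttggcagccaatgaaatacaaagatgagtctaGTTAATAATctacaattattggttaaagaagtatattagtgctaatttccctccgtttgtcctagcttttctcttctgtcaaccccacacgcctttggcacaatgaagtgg
AFP: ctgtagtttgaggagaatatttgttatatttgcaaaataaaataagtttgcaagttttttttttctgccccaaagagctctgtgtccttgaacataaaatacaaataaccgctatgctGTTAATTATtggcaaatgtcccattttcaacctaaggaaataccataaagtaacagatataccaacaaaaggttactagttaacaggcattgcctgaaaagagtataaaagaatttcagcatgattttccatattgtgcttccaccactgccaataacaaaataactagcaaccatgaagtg
FGA: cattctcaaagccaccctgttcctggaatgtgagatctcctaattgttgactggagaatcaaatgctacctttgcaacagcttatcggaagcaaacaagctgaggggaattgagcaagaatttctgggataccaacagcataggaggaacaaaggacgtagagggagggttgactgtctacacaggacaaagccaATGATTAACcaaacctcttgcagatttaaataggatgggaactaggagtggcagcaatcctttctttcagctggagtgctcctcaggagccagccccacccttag
ME1: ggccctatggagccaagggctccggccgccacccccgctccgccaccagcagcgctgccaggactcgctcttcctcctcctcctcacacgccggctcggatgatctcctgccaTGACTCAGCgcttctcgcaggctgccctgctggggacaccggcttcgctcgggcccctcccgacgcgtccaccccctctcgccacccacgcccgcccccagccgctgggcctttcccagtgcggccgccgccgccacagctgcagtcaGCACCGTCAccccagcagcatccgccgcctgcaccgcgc
The HNF1 letters stood in 4 of 19 plasma protein genes with a window, namely ALB, AFP, FGA and PLG, in 2 of 18 complement and coagulation genes, in 1 of 16 liver metabolic enzyme genes and in 0.792% of 35116 windows of all genes. They also stood in 1 of 5 oncofetal genes, again AFP, and in 1 of 16 laminin and integrin genes, ITGB5 (-1.69 log2 units). They stood in 0 of 9 apolipoprotein genes, 0 of 11 genes of liver transcription factors and 0 of 16 drug metabolism genes. In ALB the match ran from -61 to -53 and in FGA from -55 to -47 relative to the start. The letters of the antioxidant response element stood in 6 of 19 NRF2 target genes in 5 of 13 alveolar genes, in 5 of 13 junction genes and in 13.3% of all windows, so they were not particular to the NRF2 list. ME1 held 2 matches, the first of which also holds the AP-1 letters TGANTCA. The HNF4 letters CAAAGTCCA stood in 1 of 19 plasma protein genes, 1 of 18 complement and coagulation genes, 0 of 9 apolipoprotein genes and 0.384% of all windows. They also stood in 2 of 16 drug metabolism genes, CYP2B6 and CYP2C8 (0.19 and 0.84 log2 units), and in 1 of 3 blood cell genes, CD68. The AP-1 letters stood in 3 of 19 NRF2 target genes and 7.71% of all windows. These matches describe the sequence and show no binding. The list counts are by gene, over any of its windows, while the shares of all windows are by window, so their bases differ. PLG, C5, F13B and G6PC, which hold HNF1 letters, were under 2 log2 units between the untreated lines.

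Across the 18339 genes, 904 were at least 2 log2 units, that is 4-fold, higher in untreated HepG2 (4.93%) and 1067 were at least 2 log2 units higher in untreated A549 (5.82%). Differences of at least 5 log2 units were found for 161 genes higher in HepG2 and 204 higher in A549. On the GSK343 arrays, 721 of the 904 genes (79.8%) and 950 of the 1067 genes (89.0%) again passed 2 log2 units in the same direction, and 893 and 1061 kept their sign. Over the 18313 genes with values in both comparisons, r was 0.937 and rho 0.807 across genes, which are not independent and share the cell lines. The median difference over all genes was 0.07 log2 units for the controls and -0.02 log2 units for the GSK343 arrays. In the limma fit over all 4 arrays, with agent as a term and Benjamini-Hochberg adjustment, 3340 of 18313 genes were higher in HepG2 (18.2%) and 3779 were higher in A549 (20.6%) at an adjusted p under 0.05. The error of this fit is the disagreement between the control and GSK343 arrays of the lines, with 1 residual degree of freedom. It was moderated by a variance trend over all genes that counted as 5.86 prior degrees of freedom. Most of the error of a gene was thus borrowed from other genes. The p-values describe these cultures, and the GSK343 arrays are not replicates of the controls.

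**Figure D2:**
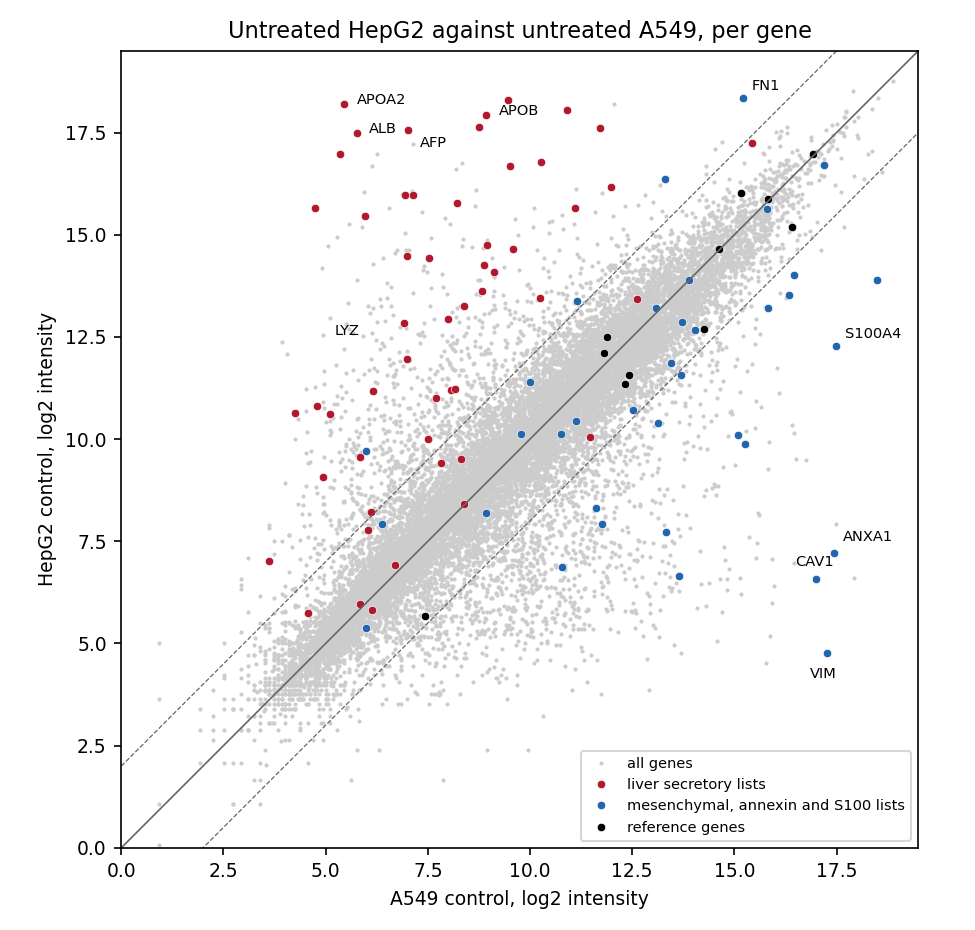
Log2 intensity of each gene in untreated A549 (x axis) and untreated HepG2 (y axis), with lists of liver secretory genes in red, mesenchymal, annexin and S100 genes in blue and reference genes in black; the solid line is equality and the dashed lines mark 2 log2 units. Most genes lie near the line, while 904 lie at least 2 log2 units above it and 1067 at least 2 log2 units below it.

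**Figure D3:**
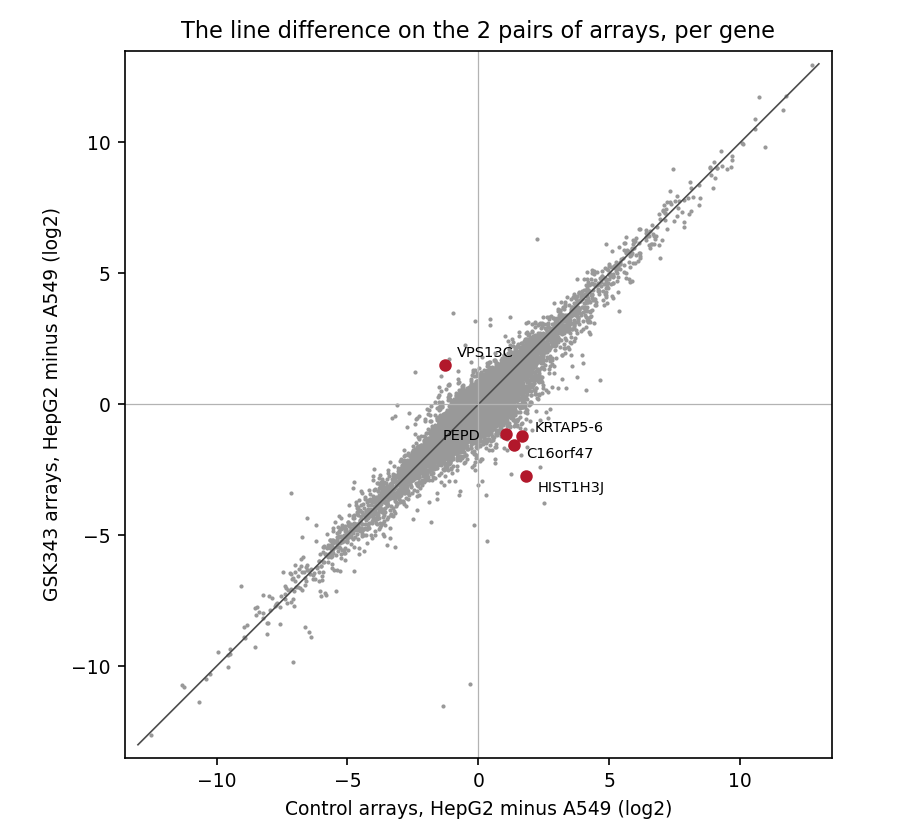
Log2 difference between the lines on the control arrays (x axis) and on the GSK343 arrays (y axis), 1 point a gene over 18313 genes, with the line of equality. The points follow the line with r = 0.937. The 5 genes in red differed by at least 1 log2 unit in opposite directions. They were picked among genes with a control value at or above the array median in at least 1 line.

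Genes were ranked by the control difference after values under the floor were raised to it. Ranked genes had a control value at or above the array median in at least 1 line. They were also at least 1 log2 unit apart in the same direction on the GSK343 arrays. The 15 genes ranked highest towards HepG2 were APOA2, ALB, AFP, DLK1, TF, SEPP1, GPC3, RELN, SERPINA5, SERPIND1, ASGR2, ORM2, APOB, CCL20 and ITIH2. APOA2, an apolipoprotein of high density lipoprotein, had 299240.0 and 265602 in HepG2 and 43.6 and 33.3 in A549 (at least 3093-fold higher in HepG2). TF, the iron carrier transferrin, had 127852 and 139837 in HepG2 and 40.8 and 58.7 in A549 (at least 1321-fold higher). SEPP1, now SELENOP, the selenium carrier selenoprotein P, had 105447 and 106957 in HepG2 and 70.2 and 73.3 in A549 (at least 1089.8-fold higher). These are products of hepatocytes, and others of the 15 are known from fetal or neural tissue. DLK1, an imprinted membrane protein of fetal liver, had 129528 and 167691 in HepG2 and 76.8 and 48.9 in A549 (at least 1339-fold higher), and GPC3, a cell surface proteoglycan used as a marker of liver cancer, was 1082-fold higher. RELN, a matrix protein known for its part in neuron migration, had 67754 and 68706 in HepG2 and 61.7 and 70.4 in A549 (at least 700.2-fold higher). ASGR2, a subunit of the hepatocyte receptor that clears glycoproteins, was at least 529-fold higher, and CCL20, a chemokine for lymphocytes and dendritic cells, had 68769 and 68558 in HepG2 and 139 and 224 in A549 (493-fold higher). That the lines were apart on both pairs of arrays was part of how these genes were chosen.

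The 15 genes ranked highest towards A549 in the same way were LDHB, VIM, CAV1, ANXA1, ALDH3A1, NNMT, CD81, HPGD, GJA1, KRT7, EMC10, AHNAK2, TNFAIP2, PRSS23 and OCIAD2. LDHB, the heart-type subunit of lactate dehydrogenase, had 97.3 and 117 in HepG2 and 250046 and 194441 in A549 (at least 2491-fold higher in A549). CD81, a tetraspanin that hepatitis C virus uses to enter cells, had 63.8 and 74.4 in HepG2 and 62017 and 52074 in A549 (at least 618-fold higher in A549). GJA1, the gap junction protein connexin 43, had 36.6 and 25.8 in HepG2 and 59853 and 68652 in A549 (at least 596-fold higher in A549). In HepG2 these genes lay near or under the floor on both arrays. NNMT, which methylates nicotinamide, had 125 and 119 in HepG2 and 89905 and 78068 in A549 (716-fold higher in A549), and HPGD, which breaks down prostaglandins, was 684-fold higher with its brighter probe. ALDH3A1, an aldehyde dehydrogenase that NRF2 induces, had 244 and 189 in HepG2 and 183344 and 196837 in A549 (752-fold higher in A549). ANXA1, an annexin that limits inflammation, had 147 and 136 in HepG2 and 178664 and 171835 in A549 (1212-fold higher in A549). No order is given among genes whose dimmer side lay at the floor.

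The gene lists that follow were chosen with earlier results of these data known, and some genes, such as AFP, are in more than 1 list. The shares of all genes beside their counts are therefore a description and not a test. Plasma proteins were higher in HepG2 as a group. Of 25 listed genes 22 were measured, 19 were at least 2 log2 units higher in untreated HepG2 and 0 were at least 2 log2 units higher in A549, against 4.93% and 5.82% of all genes, and their median difference was 6.40 log2 units against 0.07 over all genes. The same 19 genes passed this size on the GSK343 arrays. SERPINA1, the inhibitor of neutrophil elastase, had 158493 and 157073 in HepG2 and 37 and 36.2 in A549 with its brighter probe. Its other probe had 26266 and 28382 in HepG2 and 533 and 449.9 in A549, so the lines were apart on both probes. AMBP, the precursor of alpha-1-microglobulin and bikunin, had 270304 and 285187 in HepG2 and 1917 and 1820.0 in A549 (141-fold higher in HepG2). The fibrinogen chains FGA, FGB and FGG were higher in HepG2 by 4.86, 4.80 and 7.57 log2 units. RBP4, the carrier of retinol, was higher by 5.89 log2 units with clear signal in A549 (199546 and 227421 in HepG2 and 3362 and 2956 in A549). The members under 2 log2 units were PLG, the precursor of plasmin, with 1.17 (0.12 with the floor), ITIH1 with 1.58 and A1BG with 0.23 log2 units. In the limma fit 21 of 22 were higher in HepG2, against 18.2% of all genes, and A1BG did not pass (adjusted p = 0.132).

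Apolipoproteins and the complement and coagulation genes lay in the same direction. Of 11 apolipoprotein and lipoprotein assembly genes measured, 10 were at least 2 log2 units higher in HepG2 against 4.93% of all genes, and the median was 6.38 log2 units. With the floor these became 9 genes and 5.38 log2 units. APOB, the structural protein of very low density lipoprotein, had 250998 and 260804 in HepG2 and 486 and 422 in A549 (517-fold higher), and MTTP, which loads lipid onto it, had 1585 and 1472 in HepG2 and 19 and 17.6 in A549 (at least 16.4-fold higher). APOE, a ligand of lipoprotein receptors, was 144-fold higher. APOC1, an inhibitor of lipoprotein uptake, was the member under 2 log2 units and was bright in both lines (154912 and 207667 in HepG2 and 44373 and 39593 in A549). Of 20 complement and coagulation genes 13 were at least 2 log2 units higher in HepG2 and 0 were so in A549, against 4.93% and 5.82% of all genes, with a median of 3.94 log2 units. With the floor 12 genes passed and the median was 2.999 log2 units. SERPIND1, the thrombin inhibitor heparin cofactor II, had 50965 and 52008 in HepG2 and 19 and 53.8 in A549 with its brighter probe (at least 527-fold higher). C3, the central complement protein, had 126772 and 136348 in HepG2 and 10327 and 9228 in A549 with its brighter probe (12.3-fold higher), so that A549 also gave signal. Its other probe was 26.6-fold higher in HepG2. F10, PROC and F5, of the clotting cascade and its inhibition, were higher by 5.92, 5.07 and 5.01 log2 units. F9 and C9 stayed under the floor in both lines, and F12, which starts the contact pathway, had a difference of -1.41 log2 units, higher in A549 in the limma fit (adjusted p = 0.00136).

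Among transcription factors enriched in liver, 8 of 13 measured were at least 2 log2 units higher in untreated HepG2 (4.93% of all genes) and 1 was so in A549 (5.82%), with a median of 3.27 log2 units, and in the limma fit 10 were higher in HepG2 and 2 in A549, against 18.2% and 20.6% of all genes. CEBPA, a basic leucine zipper factor of hepatocytes and fat cells, had 66682 and 57032 in HepG2 and 3452 and 4956 in A549 (19.3-fold higher in HepG2). NR1H4, the bile acid receptor FXR, had 8119 and 7100.4 in HepG2 and 293 and 294 in A549 (27.7-fold higher), and its target NR0B2 was 15.3-fold higher. PROX1, a homeobox factor of early hepatoblasts, had 4062 and 5057 in HepG2 and 35.1 and 45 in A549 with its brighter probe (at least 42-fold higher). FOXA1 and FOXA3, which open liver enhancers, were higher by 2.86 and 3.64 log2 units. FOXA2 did not separate the lines, with 18131 and 27095 in HepG2 and 27537 and 21162 in A549 (adjusted p = 0.751 in limma). NR5A2, a nuclear receptor known as a regulator of bile acid synthesis in liver, ran against the list. It had 129 and 162 in HepG2 and 13100.0 and 10053 in A549 with its brighter probe and was 102-fold higher in A549, and its second probe gave -4.11 log2 units.

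Enzymes of the mature hepatocyte were less uniform. Of 20 metabolic enzyme and transport genes measured, 7 were at least 2 log2 units higher in HepG2 and 1 in A549, and with the floor 5 and 1, against 4.93% and 5.82% of all genes, with a median of 1.45 log2 units. HPD and HGD, of tyrosine breakdown, were higher by 7.21 and 4.98 log2 units, and CYP27A1, a mitochondrial enzyme of bile acid synthesis, had 42621 and 36820.4 in HepG2 and 797 and 863 in A549 (53.5-fold higher). ASS1, of the urea cycle, was higher by 2.72 log2 units. In contrast, probes of other liver enzymes were dim in HepG2 itself. PCK1, of gluconeogenesis, had 101 and 139 in HepG2 and 59.8 and 66.5 in A549, and CYP7A1, the rate-limiting enzyme of bile acid synthesis, had 57.5 and 55.8 in HepG2 and 62.6 and 53.8 in A549 with its brighter probe. HAO1, a peroxisomal oxidase of liver, had 35.6 and 31 in HepG2 and 44.6 and 35.2 in A549. BAAT, which joins bile acids to amino acids, was higher in A549 on all of its 3 probes, with a mean difference of -2.00 log2 units and 320.0 and 354 in HepG2 and 1559.6 and 1524 in A549 for the brightest.

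Of 18 drug metabolism genes measured, 3 were at least 2 log2 units higher in HepG2 and 1 was so in A549, the latter close to the 5.82% of all genes, with a median of 0.44 log2 units. The genes higher in HepG2, where 4.93% of all genes were so, were SULT2A1, a sulfotransferase of steroids and bile acids (5297 and 5232 in HepG2 and 15.2 and 22.5 in A549), UGT2B10, a glucuronosyltransferase (at least 7.87-fold higher), and CYP1A1, a target of the aryl hydrocarbon receptor (4.33 log2 units). CYP1B1, another target of that receptor, ran the other way with 177 and 103 in HepG2 and 48129 and 45591 in A549 (272-fold higher in A549). The pair CYP1A1 and CYP1B1 thus had opposite line differences on both pairs of arrays. CYP3A4, the main drug oxidase of adult liver, had 129.7 and 144 in HepG2 and 149 and 108 in A549, close to the floor in both lines.

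Oncofetal genes split into a few with very large differences and others shared by both lines. Of 10 measured, 5 were at least 2 log2 units higher in HepG2 and 0 were so in A549, against 4.93% and 5.82% of all genes, with a median of 2.07 log2 units, which was 3.58 log2 units over probes at or above the array median. Besides AFP, DLK1 and GPC3, LIN28B, a blocker of let-7 maturation, had 10661 and 12505 in HepG2 and 530.3 and 507 in A549 with its brighter probe (20.1-fold higher). PEG10, an imprinted gene of retroviral origin, had 237945 and 240514 in HepG2 and 26629 and 25523 in A549 with its brighter probe (8.94-fold higher). IGF2BP3, a fetal RNA binding protein, was bright in both lines with 16543 and 16877 in HepG2 and 13406 and 13459 in A549 (adjusted p = 0.247 in limma). H19, an imprinted long RNA, had 942 and 669 in HepG2 and 1802 and 2098 in A549 and was higher in A549 in the limma fit (adjusted p = 0.00397).

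Targets of beta-catenin, the effector of WNT signals, were higher in HepG2. Of 14 listed genes, all measured, 10 were at least 2 log2 units higher in HepG2 (4.93% of all genes) and 1 was so in A549 (5.82%), with a median of 4.17 log2 units. In limma 13 passed towards HepG2, against 18.2% of all genes. SP5, a zinc finger factor induced by WNT, had 39034 and 32382 in HepG2 and 47.4 and 49.9 in A549 (at least 403-fold higher). NOTUM, a secreted enzyme that inactivates WNT ligands, had 22068 and 19289 in HepG2 and 84.4 and 125 in A549 (at least 228-fold higher). LGR5, the receptor for R-spondins, had 1033 and 671 in HepG2 and 19 and 24.4 in A549 (at least 10.7-fold higher). In A549 these 3 genes lay near or under the floor. AXIN2, which feeds back on beta-catenin, was 13.4-fold higher, and RNF43, a ligase that removes WNT receptors, was 18-fold higher. GLUL, the glutamine synthetase of hepatocytes around the central vein, had 61892 and 63963 in HepG2 and 255 and 1058 in A549 with its brighter probe, while its dim probe gave only 0.51 log2 units. DKK1, a secreted WNT inhibitor that is itself a target, was the exception, with 2753 and 1785 in HepG2 and 21875 and 23895 in A549 (7.94-fold higher in A549). The transcript of CTNNB1, which encodes beta-catenin, had 78736 and 95022 in HepG2 and 75150.5 and 56970.3 in A549 and did not pass limma (adjusted p = 0.194). The GSK343 median of the list was lower, at 3.16 log2 units, a gap that was not tested.

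**Figure D4:**
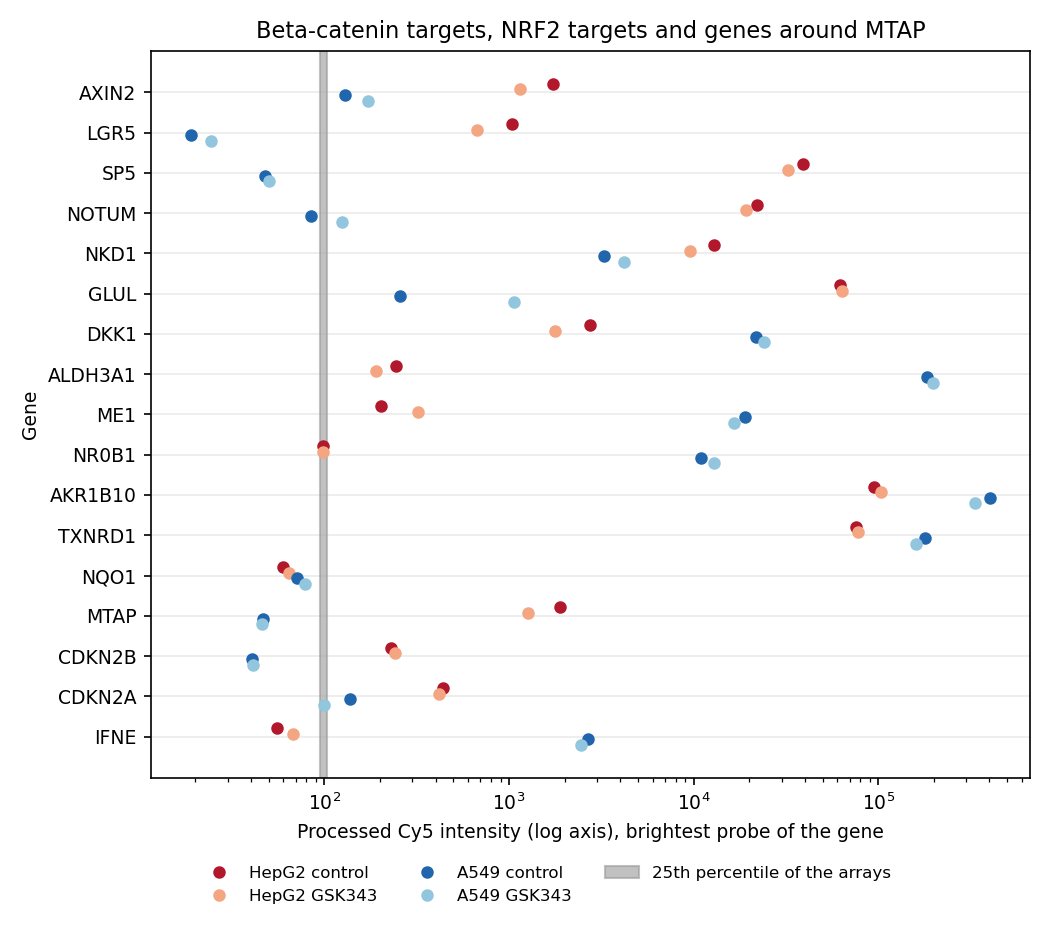
Processed Cy5 intensity on a log axis for targets of beta-catenin, targets of NRF2 and genes around MTAP, brightest probe of each gene, with the 4 arrays as coloured points and the arrays' 25th percentiles as a grey band. The beta-catenin targets other than DKK1 are brighter on the HepG2 arrays, ALDH3A1, ME1 and NR0B1 are brighter on the A549 arrays, and MTAP and CDKN2B lie under the band only on the A549 arrays.

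Genes of the alveolar epithelium did not set A549 apart as a group. Of 18 alveolar and lung lineage genes, 0 were at least 2 log2 units higher in HepG2 and 2 were so in A549 (5.82% of all genes), 1 of them with the floor, and the median was -0.08 log2 units. NKX2-1 had 147 and 151 in HepG2 and 134 and 130.1 in A549 (adjusted p = 0.464 in limma). SFTPC, the surfactant protein specific to alveolar type 2 cells, had 30.3 and 46.5 in HepG2 and 31.3 and 35.2 in A549, under the floor on every array. SFTPB, another surfactant protein, had 185 and 178 in HepG2 and 136 and 154 in A549 with its brighter probe. The probes of these 3 defining genes thus lay near or under the floor in both lines. No line difference could be read from them, and none was clearly brighter in A549. The exceptions were ABCA3, the lipid transporter of surfactant storage bodies, with 247 and 114 in HepG2 and 3058 and 3495 in A549 (12.4-fold higher in A549), and NAPSA, a protease that trims surfactant protein B, with 41.8 and 37.2 in HepG2 and 176 and 189 in A549, which is at least 1.76-fold with the floor. SFTPD also passed limma towards A549 (adjusted p = 0.0276) at a dim signal of 59.6 and 69.3 in HepG2 and 122 and 96.8 in A549.

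Of 12 genes of airway mucins and secretory cells, 3 were at least 2 log2 units higher in A549 and 1 in HepG2, against 5.82% and 4.93% of all genes. AGR2, an endoplasmic reticulum protein needed for mucin folding, had 99.3 and 133 in HepG2 and 12899 and 11299.8 in A549 (at least 128-fold higher in A549). SPDEF, a factor of goblet cells, had 116 and 136 in HepG2 and 757 and 981 in A549, and MUC1, a membrane mucin, had 202 and 192 in HepG2 and 762 and 695 in A549 with its brighter probe. The gel-forming mucins did not follow them. MUC5B had 38.7 and 39.3 in HepG2 and 35.1 and 42.1 in A549, under the floor throughout, and MUC5AC had a mean difference of 0.35 log2 units (adjusted p = 0.16 in limma). TFF3, a trefoil peptide of goblet cells, was higher in HepG2 (672 and 914 in HepG2 and 104 and 95.8 in A549).

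Keratins separated the lines by member rather than as a group, with a median of 0.02 log2 units over 11 genes, 3 of them at least 2 log2 units higher in A549 and 1 in HepG2 (5.82% and 4.93% of all genes). Besides KRT7, KRT81, a hair keratin found in carcinoma lines, had 969 and 1156 in HepG2 and 59025 and 50748 in A549 (60.9-fold higher in A549), and KRT80 had 269.8 and 232 in HepG2 and 8933 and 7672 in A549 (33.1-fold higher in A549). KRT23 was the member higher in HepG2, with 9385 and 8703 in HepG2 and 71.1 and 50.9 in A549 (at least 97-fold higher). KRT19, a keratin of bile ducts and other simple epithelium, was bright in both lines with 43501 and 48957 in HepG2 and 19618 and 20695 in A549. Among basal keratins, KRT5, KRT6A and KRT17 stayed under the floor in both lines. KRT14, another of them, was bright in both, with 11270 and 11922 in HepG2 and 6980 and 6722 in A549.

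Of 19 mesenchymal and caveolar genes 8 were at least 2 log2 units higher in A549 and 2 in HepG2, 1 of the latter with the floor, against 5.82% and 4.93% of all genes, with a median of -0.73 log2 units, and in limma 13 passed towards A549 and 3 towards HepG2 (20.6% and 18.2% of all genes). CAV2, the partner of CAV1, had 181 and 188 in HepG2 and 22550.5 and 15829 in A549 with its brighter probe, and PTRF (CAVIN1) and PRKCDBP (CAVIN3), which shape caveolae with them, had mean differences of -2.12 and -3.83 log2 units. AXL, a receptor kinase linked to mesenchymal state, had 936 and 882 in HepG2 and 39216 and 38752 in A549 (41.9-fold higher in A549). S100A4, a calcium binding protein of motile cells, had 4965 and 4978 in HepG2 and 184841 and 170728 in A549 (37.2-fold higher). The 3 caveolar genes besides CAV1 thus lay on the same side as CAV1 and VIM, but the transcription factors of epithelial to mesenchymal transition did not differ by 2 log2 units. SNAI1 was higher in HepG2 by 1.40 log2 units, ZEB1 had -0.62 and ZEB2 -0.73 log2 units, and all of these passed limma (adjusted p = 0.00151, 0.0412 and 0.00723). TWIST1 had 0.35 log2 units (adjusted p = 0.488 in limma). FN1, the matrix protein fibronectin that hepatocytes also secrete into plasma, was higher in HepG2 with 330936 and 343297 in HepG2 and 37947 and 31362 in A549 (8.72-fold), as was LOX, which cross-links collagen, by 3.72 log2 units. CD44, a hyaluronan receptor, had 40.8 and 36.2 in HepG2 and 11853 and 12149.7 in A549 with its brighter probe, while its other probe gave 0.39 log2 units.

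The annexin, S100 and galectin genes, whose proteins bind calcium, membranes or sugars, had the lowest median of the lists, -2.45 log2 units over 17 genes, with 9 at least 2 log2 units higher in A549 and 2 in HepG2 (5.82% and 4.93% of all genes). S100A6 had 15300.4 and 21424 in HepG2 and 369457 and 325184 in A549 (24.1-fold higher in A549), S100A11 was 31.7-fold higher and ANXA2, the partner of S100A10, was 48.3-fold higher. LGALS1, galectin 1, had 16584 and 19384 in HepG2 and 90675 and 71248 in A549 (5.47-fold higher). ANXA5, used to stain dying cells, did not separate the lines, with 15145 and 16262 in HepG2 and 15271 and 15224 in A549 (adjusted p = 0.891 in limma). S100P was higher in HepG2 with 84321 and 112643 in HepG2 and 10143 and 9103 in A549 (8.31-fold), and ANXA6 by 2.22 log2 units, which was 1.13 on the GSK343 arrays.

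Junction genes were divided between the lines, with 3 of 19 at least 2 log2 units higher in HepG2 and 2 in A549 (4.93% and 5.82% of all genes) and a median of 0.14 log2 units. EPCAM, an adhesion molecule of epithelial and hepatic progenitor cells, had 41242 and 30597 in HepG2 and 1479 and 2186 in A549 (27.9-fold higher in HepG2), and CLDN4, a claudin of tight junctions, had 5866 and 4870.1 in HepG2 and 271 and 349 in A549 (21.6-fold higher). ESRP2, a splicing factor of epithelial cells, had 12201 and 11628 in HepG2 and 141 and 129 in A549 (86.3-fold higher). CLDN2, a claudin that forms cation pores, had a difference of -2.95 log2 units towards A549, and CDH1, E-cadherin, had 1156 and 1267 in HepG2 and 2337 and 2880.2 in A549 and passed limma towards A549 (adjusted p = 0.00363). Of 20 laminin and integrin genes 6 were at least 2 log2 units higher in A549 and 1 in HepG2, against 5.82% and 4.93% of all genes, and with the floor 5 and 0. ITGA3, a laminin receptor subunit, had 75.3 and 36.2 in HepG2 and 7458 and 13128 in A549 (at least 74.3-fold higher in A549), and ITGA5, the fibronectin receptor subunit, had 61.7 and 62 in HepG2 and 1687 and 1687 in A549 (at least 16.8-fold higher). LAMB3, a chain of the laminin of epithelial anchoring contacts, had 534 and 587 in HepG2 and 5444 and 3565 in A549 with its brighter probe. ITGA1, a collagen receptor subunit, was the member higher in HepG2 (239 and 197 in HepG2 and 24.7 and 24.4 in A549), which is at least 2.47-fold with the floor.

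Targets of NRF2 were higher in A549 for some members and alike for others. Of 24 measured, 5 were at least 2 log2 units higher in A549 and 0 in HepG2, against 5.82% and 4.93% of all genes. Below 0 lay 20 of them, against 8468 of 18339 over all genes, and the median was -0.88 log2 units. In limma 11 passed towards A549, against 20.6% of all genes, and 1 towards HepG2, against 18.2%. ME1, the cytosolic malic enzyme that makes NADPH, had 203 and 319.5 in HepG2 and 18962 and 16562 in A549 with its brighter probe (93.5-fold higher in A549), the gene whose promoter is printed above. NR0B1, a nuclear receptor known to be induced in KEAP1-mutant lung cancer, had 98.3 and 98.2 in HepG2 and 10948 and 12849 in A549 (at least 109-fold higher). AKR1B10, an aldo-keto reductase, was bright in both lines with 95219 and 103163 in HepG2 and 401639 and 332168 in A549 (4.22-fold higher in A549), and its relative AKR1C1 had 168933 and 182071 in HepG2 and 266703 and 231001 in A549 (adjusted p = 0.0603 in limma). The AKR1C genes are near-identical copies, and their probes may not tell them apart. SLC7A11, the cystine importer, had a mean difference of -2.22 log2 units towards A549, which the floor takes under 2 log2 units and the count to 4. The glutathione synthesis genes GCLM and GCLC had -0.90 and -0.26 log2 units (adjusted p = 0.0543 and 0.478 in limma). NQO1, a quinone reductase and a classical target, had 59.6 and 64.1 in HepG2 and 71.1 and 78.2 in A549, under the floor on every array, so no line difference could be read from its probe. HMOX1, heme oxygenase, was the member that passed towards HepG2 (5379 and 5007 in HepG2 and 2019.7 and 3186 in A549).

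Receptors and secreted signals differed by member. Of 17 receptor kinase genes, 4 were at least 2 log2 units higher in HepG2 and 3 in A549, against 4.93% and 5.82% of all genes. FGFR4, the receptor for the bile acid hormone FGF19 in liver, had 63773 and 66764 in HepG2 and 7222 and 7968 in A549 (8.83-fold higher in HepG2). FGFR3 had 45671 and 38173 in HepG2 and 1774 and 1482 in A549 (25.7-fold higher in HepG2) and ERBB3 was higher by 4.30 log2 units over 3 probes. MET, the hepatocyte growth factor receptor, was higher in A549 with 7076 and 7905 in HepG2 and 55532 and 42763 in A549 for its brighter probe. EGFR, the epidermal growth factor receptor, had a mean of -1.68 log2 units over 3 probes, all towards A549, and -2.80 on the GSK343 arrays. Of 21 cytokine and chemokine genes, 6 were at least 2 log2 units higher in A549 and 2 in HepG2, against 5.82% and 4.93% of all genes. CXCL5, a neutrophil chemokine, had 207 and 173 in HepG2 and 16937 and 21560.0 in A549 with its brighter probe (81.8-fold higher in A549). CCL2, a monocyte chemokine, had 187 and 176 in HepG2 and 15438 and 8566 in A549 with its brighter probe (82.5-fold higher). Their means over probes were -7.17 and -6.76 log2 units. CXCL1 and CXCL2, of the same neutrophil group, had -3.82 and -4.67 log2 units. IL32, a cytokine of epithelial and immune cells, was higher in HepG2 on all of its 4 probes, by a mean of 3.70 log2 units. IL6 and TNF stayed under the floor in both lines.

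**Figure D5:**
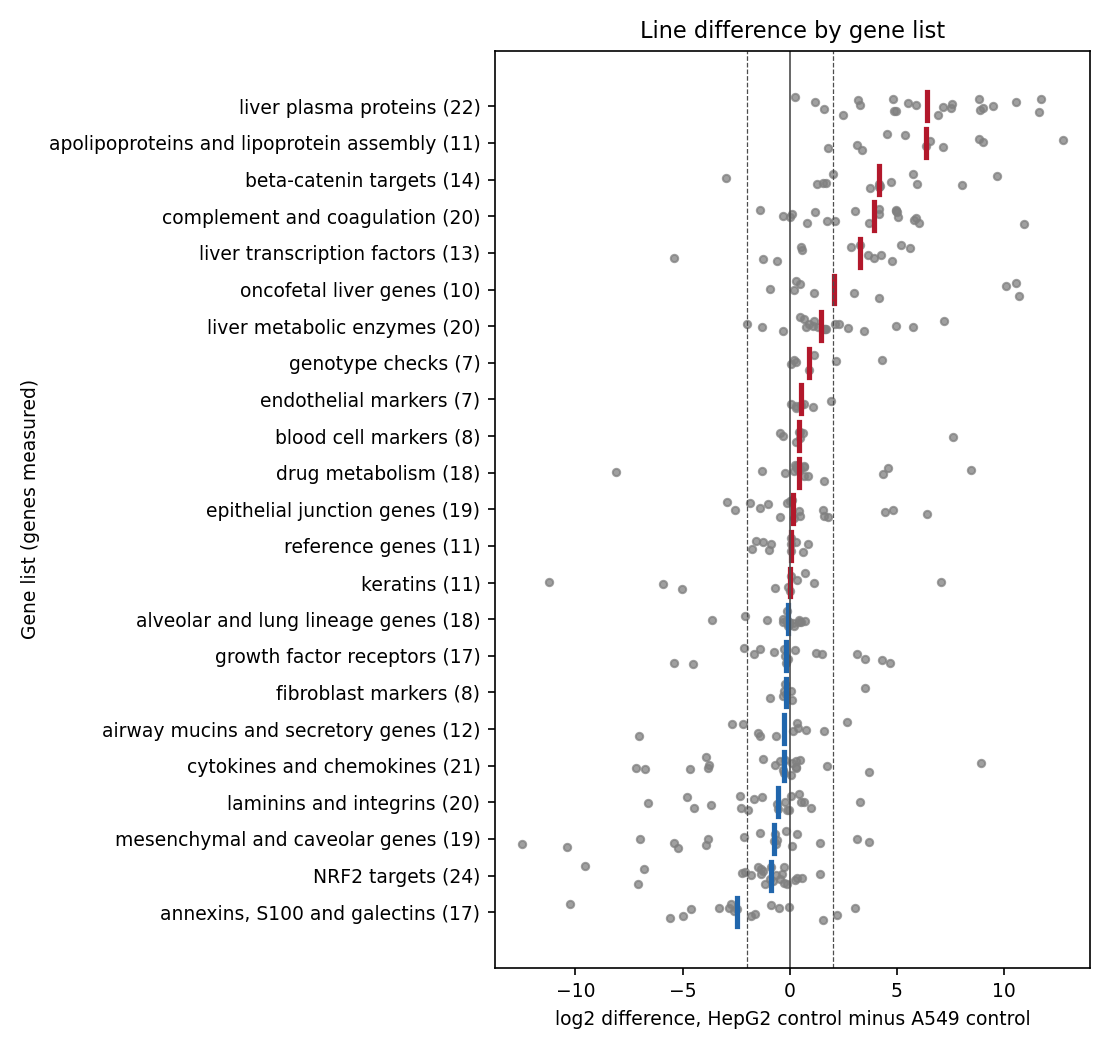
Log2 difference between untreated HepG2 and untreated A549 for each gene of 23 lists (grey points), with the list median as a bar, red above 0 and blue below, and dashed lines at 2 log2 units; lists are ordered by median. Plasma proteins and apolipoproteins lie highest, with medians of 6.40 and 6.38, and the annexin, S100 and galectin list lies lowest, at -2.45.

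Genes of loci known to be altered in these lines were also read as a list. Of 7 measured, 2 were at least 2 log2 units higher in HepG2, 1 with the floor, and 0 in A549, against 4.93% and 5.82% of all genes. A549 is known to lack both copies of the chromosome 9 region that holds CDKN2A. MTAP, an enzyme of methionine salvage that lies beside it, had 1894 and 1274 in HepG2 and 46.5 and 46 in A549 with its brighter probe (at least 19.6-fold higher in HepG2). CDKN2B, a cyclin-dependent kinase inhibitor, had 229 and 239.9 in HepG2 and 40.8 and 41.1 in A549 with its brighter probe. The brighter CDKN2A probe had 438 and 419.8 in HepG2 and 138 and 99.8 in A549 and the dimmer one 65.9 and 68.2 in HepG2 and 61.7 and 73.3 in A549, so that signal in A549 was near or under the floor for all 3 genes. Of 13 measured genes around and including CDKN2A in the order of RefSeq on chromosome 9, chosen after the values were seen, MTAP and CDKN2B were the only ones at least 2 log2 units higher in HepG2. With the floor the brighter CDKN2B probe was at least 2.37-fold higher and its other probe lay under the floor in both lines, so that CDKN2B no longer passed. IFNE, an epithelial interferon gene next to MTAP among the measured genes, ran the other way with 55.4 and 67.2 in HepG2 and 2664 and 2449 in A549 (at least 26.5-fold higher in A549). KLHL9, further out on that side, had 2266 and 2126 in HepG2 and 2343 and 1764 in A549 with its brighter probe. KEAP1 had 3564 and 2829 in HepG2 and 2918 and 2645 in A549 (adjusted p = 0.485 in limma), and NFE2L2, which encodes NRF2, was higher in HepG2 by 1.12 log2 units. The probes of STK11, also of this list, disagreed in sign, with control differences of -1.23 and 1.63 log2 units (adjusted p = 0.686 in limma).

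Markers of other cell types were under the floor for some members and gave signal for others. Of all genes 4.93% were at least 2 log2 units higher in HepG2 and 5.82% in A549. With lists this small, the counts of 0 or 1 below are not read as a difference from these shares. Of 8 fibroblast markers 1 differed by at least 2 log2 units, namely PDGFRB, a growth factor receptor, higher in HepG2 with 869 and 891 in HepG2 and 74.9 and 86.1 in A549, and COL1A2, COL3A1 and DCN stayed under the floor in both lines. COL1A1, a chain of type I collagen, gave signal in both, with 2150.1 and 2378 in HepG2 and 2696 and 2647 in A549. Of 7 endothelial markers none reached 2 log2 units, and the values were 596 and 349 in HepG2 and 374 and 278 in A549 for CDH5 and 512 and 505 in HepG2 and 135 and 321 in A549 for VWF. Of 8 blood cell markers 1 did, LYZ, the antibacterial enzyme lysozyme, with 5939 and 6999 in HepG2 and 30.4 and 39.1 in A549 (at least 61.4-fold higher in HepG2), and PTPRC and CD3E stayed under the floor. The other blood cell markers gave signal in both lines without reaching 2 log2 units, namely CD14, a monocyte receptor, with 5138 and 5633 in HepG2 and 3852 and 3394 in A549, CD68, a lysosomal protein of macrophages, with 2119 and 1448 in HepG2 and 1386 and 2310.0 in A549, and HBA1, HBB and MS4A1 with differences of 0.47, -0.43 and -0.31 log2 units. The part of other cells in these results was not tested. Of 11 reference genes 0 differed by 2 log2 units, but in limma 2 passed towards HepG2 and 5 towards A549, against 18.2% and 20.6% of all genes. TFRC and TBP passed towards HepG2, and PPIA, YWHAZ, PGK1, HPRT1 and RPLP0 towards A549. GAPDH had 128338 and 130283 in HepG2 and 124279 and 173229 in A549 and B2M had 60175 and 66525 in HepG2 and 57997 and 55128 in A549, while HPRT1, often used to scale PCR data, was higher in A549 with 6628 and 7157 in HepG2 and 19410.4 and 18324 in A549 (adjusted p = 0.00116 in limma). The RPLP0 probe gave only 51.2 and 37.2 in HepG2 and 174 and 204 in A549.

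Where a gene had 2 probes, they did not always show the same size. The brighter probe was at least 2 log2 units from 0 for 534 of 4593 such genes, the other probe had the same sign for 490 of them, and it passed 2 log2 units in that direction for 267. Means over probes are therefore smaller than the difference of the brighter probe for genes such as CD44 and GLUL.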

How the data were processed

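RNA of 4 cultures was read on 1-colour Human OneArray Plus arrays, 1 for each line and agent at 6 h. The authors deposited a processed Cy5 intensity for each of 31741 probes on a linear scale, and the scanner, background correction and normalization are not given in the sources used here. Genes were named from GEO's platform annotation, with 24740 probes naming 1 gene, 977 naming several and 6024 naming none, and probes of several genes were not used. No file flags dim probes, and values that were not above 0, 41 to 91 an array, were left out of log2 values.

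From the deposited intensity the log2 difference of HepG2 minus A549 was taken per probe, without further normalization, and averaged over the probes of a gene. A gene was counted as different from 2 log2 units, a size and not a test. A limma fit (lmFit and eBayes with a variance trend, terms for line and agent, 1 residual degree of freedom) over all 4 arrays gave p-values adjusted over 18313 genes. The fit was also run on simulated data that followed its own model, which says nothing about the error between cultures. The text names the markers, 15 genes in each direction, at most 8 genes of a list plus its exceptions, and genes with opposite differences. The 15 had the largest control differences with the floor, among genes at least 1 log2 unit apart on the GSK343 arrays too. They and the genes with opposite differences had a control value at or above the array median in at least 1 line. The 23 lists were chosen with earlier results of these data known, and 29 listed genes had no probe of their own. Promoters were matched by symbol in RefSeq (GRCh38.p14). Alternatives were the size, an offset of 50, the floor, the brightest probe, brighter probes only, centring, quantile normalization, other settings of limma and each array left out. The number of arrays limits the precision. Python 3.11.15, pandas 2.3.3, R 4.3.3 and limma 3.58.1 were used.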

Additional observations from a re-analysis of the deposited data

Results flagged for a closer look

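Genes with a control value at or above the array median in at least 1 line were searched for opposite line differences. Of these, 5 had line differences that passed 1 log2 unit on both pairs of arrays but with opposite signs. Dimmer genes were not counted. HIST1H3J, a histone H3 gene of a family of near-identical copies, had a difference of 1.80 log2 units on the control arrays and -2.73 on the GSK343 arrays. C16orf47 had 1.36 and -1.56 log2 units, and KRTAP5-6, a keratin associated protein of hair, had 1.67 and -1.20. PEPD, a peptidase for peptides that end in proline, had 1.04 and -1.14 log2 units. VPS13C, a lipid transfer protein, had -1.28 and 1.49 log2 units as a mean, but its brighter probe kept its sign (-0.80 and -1.02) and the change came from the dimmer probe alone (-1.76 and 3.99). Each pair rests on 4 single arrays, and the change of direction was not tested.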

How the results depend on the processing

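No list median of at least 2 log2 units changed sign under an alternative that was run. The medians near 0 of the keratin, reference, alveolar, mucin, cytokine and fibroblast lists did so under at least 1 alternative (keratins -0.67 log2 units with brighter probes only), and no direction is read from them. With a size of 1 log2 unit, 2380 genes were higher in HepG2 and 2520 in A549 (4040 and 4254 probes). Adding 50 to every intensity gave a median of 5.24 log2 units for apolipoproteins and 2.89 for complement and coagulation genes, and the floor gave 5.38 and 2.999. Over probes at or above the array median the oncofetal list had 3.58 log2 units. The other 133 list medians under an alternative moved by less than the spread between probes. Among single genes, 93 values moved by more than that, 34 of them with the floor. In limma, leaving out 1 array in turn, which takes out the agent term, gave 3004 to 3578 genes higher in HepG2 and 3530 to 3791 in A549. The other settings gave 3248 to 3730 and 3592 to 4202. Of 226 listed genes called by limma, 215 to 226 remained under these alternatives with no change of sign. No paired analysis was possible because each group had a single array and no replicate numbers to pair, beyond the agent term of limma, which compares the lines within an agent.

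These are single cultures, so line, culture and array cannot be told apart. The steps behind the deposited values are unknown, and a difference whose dim side lies under the floor is a bound.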

Other observations

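The line difference also varied by chromosome, a pattern noticed after the values were seen and given without a test. Over 8416 genes with intensities at or above the median on all arrays, the median difference between untreated HepG2 and A549 was 0.03 log2 units. Chromosome 6 had the highest chromosome median, 0.51 log2 units over 442 genes, followed by chromosome 20 with 0.45 over 258 genes. Chromosomes 8 and 15 had the lowest, both -0.34 log2 units, over 309 and 276 genes. On the GSK343 arrays these medians were 0.53, 0.43, -0.32 and -0.35 log2 units in the same order. The numbers of copies of these chromosomes in the cultures were not measured here.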
